A study of Mus musculus with 8 samples.

Results

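The genes described here encode the ubiquitin-conjugating enzymes named Ube2 and their inactive variants. They were taken as every probe of a gene, control spots left out, whose gene name in the array files began with Ube2. This gave 81 of 41174 probes, which read 31 genes. The family was chosen by the readout of Ube2v2, which stood 10.8-fold higher in V5 IP than in mock IP. Values of V5 IP against mock IP are therefore given as a description, and so are the values of Ube2v2 in the other comparisons that use the same V5 IP or mock IP arrays. After probes near background were set aside, 77 probes and 30 genes were kept. Only Ube2u was left out, with its probe well above background on 2 of 8 arrays. The probe that stands for each of the 30 kept genes was well above background on all 8 arrays. The name rule does not take 6 genes that now carry a Ube2 name but have another one in the files (Ube2k, Ube2cbp, Ube2ql1, Ube2d-ps, Ube2d2b and Ube2dnl2).

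Ubiquitin is a small protein that is joined to other proteins through a relay of enzymes. An activating enzyme loads ubiquitin, a conjugating enzyme takes it over on a cysteine, and a ligase brings the loaded conjugating enzyme to its substrate. The conjugating enzyme largely sets the kind of ubiquitin chain, which marks a protein for the proteasome or changes its partners, and some members carry a ubiquitin-like protein instead. In the mouse germ line the pathway is known from Ube2b, without which males are infertile.

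RNA that came down with tagged Dazl, which binds RNA in germ cells, was compared with RNA of a mock immunoprecipitation (IP) and with total RNA. The cells were in vitro primordial germ cells, differentiated for 12 days from Dazl-GFP-V5 ES cells derived from the V6.5 line (strain C57BL/6 129SV mixed). All 4 groups came from these same tagged cells: V5 IP with an anti-V5 antibody, GFP IP with an anti-GFP antibody, mock IP with normal mouse IgG, and input RNA with no IP. Feeder cells had been depleted before differentiation, and the RNA-IP was native, without ultraviolet crosslinking. Each group had 2 one-colour Agilent arrays. The first replicate of each group was on slide 1, the other on slide 2.

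Levels are log2 of the processed array intensity relative to the 75th percentile of the same array. They compare 1 probe across arrays and do not rank genes by abundance. Scaling was done within each array, so a fold change is relative to the other RNA on the array and is not an amount recovered. The 75th percentile lay between 352 and 1130 intensity units, lowest on mock IP replicate 1, and 61.3% to 70.5% of probes were well above background. Of 11 germ cell and pluripotency markers, 10 were well above background on both input arrays, Dazl included, and Prdm14 was not. Markers of other cells were measured in input too, with 5 of 5 for fibroblasts and mesenchyme, 3 of 4 for endoderm (Ttr was not), 3 of 3 for neural cells and 3 of 3 for blood and endothelium. These markers do not say which cells carried the signal, and in the input more cells of a type and more RNA per cell cannot be told apart. The summed linear level of the germ cell list was 152.5 to 257 times the 75th percentile on the V5 IP and GFP IP arrays, 55.6 to 70.03 on the mock IP arrays and 68.5 to 75.4 on the input arrays. Its brightest probes (Sox2, Kit and Tfap2c among them) weigh most in this sum, and Pou5f1 was called lower than input and Nanos3 lower than mock IP with both tag antibodies. That of the neural list was 8.60 to 19.7 on the V5 IP and GFP IP arrays, 5.45 to 6.03 in mock IP and 2.73 to 4.19 in input. That of the fibroblast list was 4.39 to 6.25 on the V5 IP and GFP IP arrays, 8.41 to 20.0 in mock IP and 9.49 to 11.3 in input. The endoderm list summed to 0.273 to 0.450 on the V5 IP and GFP IP arrays, 0.368 to 0.728 in mock IP and 0.941 to 1.65 in input. The blood and endothelium list summed to 3.001 to 5.42 on the V5 IP and GFP IP arrays, 2.51 to 2.996 in mock IP and 1.83 to 1.94 in input. In this list Pecam1 was called higher than mock IP with both tag antibodies, Cdh5 lower with both and Hbb-bh1 lower in GFP IP. In the neural list Tubb3 was called higher than input with both, and no neural marker was called against mock IP. The part of all these markers in the results below was not tested.

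Ube2v2 encodes a conjugating enzyme variant without the catalytic cysteine. It pairs with the active enzyme Ube2n to build a chain type used in DNA damage tolerance, and Ube2v1 is its close relative, which pairs with Ube2n in inflammatory signalling. Ube2v2 gave log2 levels of 3.04 and 2.72 on the V5 IP arrays and 2.75 and 2.82 on the GFP IP arrays, against -0.74 and -0.37 on the mock IP arrays and -0.05 and -0.29 on the input arrays (slide 1 first, as in every pair of values below). All 4 arrays of the tag antibodies lay more than 2 log2 units above all 4 others. The difference was 3.44 ± 0.25 (SE of the fit) for V5 IP against mock IP, 3.34 ± 0.25 for GFP IP against mock IP and 3.05 ± 0.25 for V5 IP against input. GFP IP against input shares no array with the comparison that drew attention to the gene. However, the probe that stands for the gene was chosen by its mean over all 8 arrays, and the fit shares its spread over all 8. The test in GFP IP against input is therefore not fully separate from that comparison. In GFP IP against input Ube2v2 rose 7.75-fold (log2 2.95 ± 0.25, limma adjusted p = 0.0018), by 2.80 on slide 1 and 3.11 on slide 2. This call held in all 16 alternative settings of the processing, each array left out in turn among them, with log2 differences of 1.96 to 3.07 and adjusted p of up to 0.0239. In mock IP against input Ube2v2 was at -0.38 ± 0.25 by the probe that stands for the gene. The other Ube2v2 probes, both well above background on all 8 arrays, lay lower there, at -1.87 and -1.003. How far mock IP lay below input thus differed between the probes. The 3 Ube2v2 probes were all higher in GFP IP than in mock IP, by 3.34, 2.63 and 3.17, and than in input, by 2.95, 0.76 and 2.17. The probe with the difference of 0.76 was the brightest of them on the input arrays, at 1.32 and 1.20. Its mean signal was nearly that of the probe that stands for the gene (1.219 against 1.237). The size of the rise over input thus depends on the probe chosen.

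Ube2n, the active partner, gave 2.55 and 1.53 on the V5 IP arrays and 2.60 and 1.66 on the GFP IP arrays, against 0.37 and 0.72 on the mock IP arrays and 2.23 and 2.08 on the input arrays. The arrays of the tag antibodies lay above mock IP and overlapped input. Ube2n rose 3.01-fold over mock IP in GFP IP (log2 1.59 ± 0.42, limma adjusted p = 0.0228). This call ended without mock IP replicate 1, mock IP replicate 2 or GFP IP replicate 1. It also ended with the normexp background, a model-based correction in place of that of the array software. Against input the V5 IP difference was -0.11 ± 0.42 and the GFP IP difference -0.02 ± 0.42, and mock IP lay at -1.61 ± 0.42 (adjusted p = 0.0513, or 0.0122 with a block for the slide). The second Ube2n probe stood 2.30 above mock IP in GFP IP and 1.59 above input, so the probes disagree about input. The third was not well above background on either mock IP array and stood 2.0 above input in GFP IP. With the mean of its probes, Ube2n in GFP IP against input lay at 1.19 (adjusted p = 0.0492).

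Ube2v1 was not called in any comparison. It gave 4.15 and 3.98 on the V5 IP arrays and 4.26 and 4.07 on the GFP IP arrays, against 4.00 and 4.17 on the mock IP arrays and 3.75 and 3.83 on the input arrays, so the tag antibody arrays and the mock IP arrays overlapped. The difference was -0.02 ± 0.22 for V5 IP and 0.08 ± 0.22 for GFP IP against mock IP, and 0.27 ± 0.22 and 0.37 ± 0.22 against input. Its other 2 probes lay at 0.03 and -0.01 in GFP IP against mock IP, and at -0.26 and -0.20 against input.

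**Figure D1:**
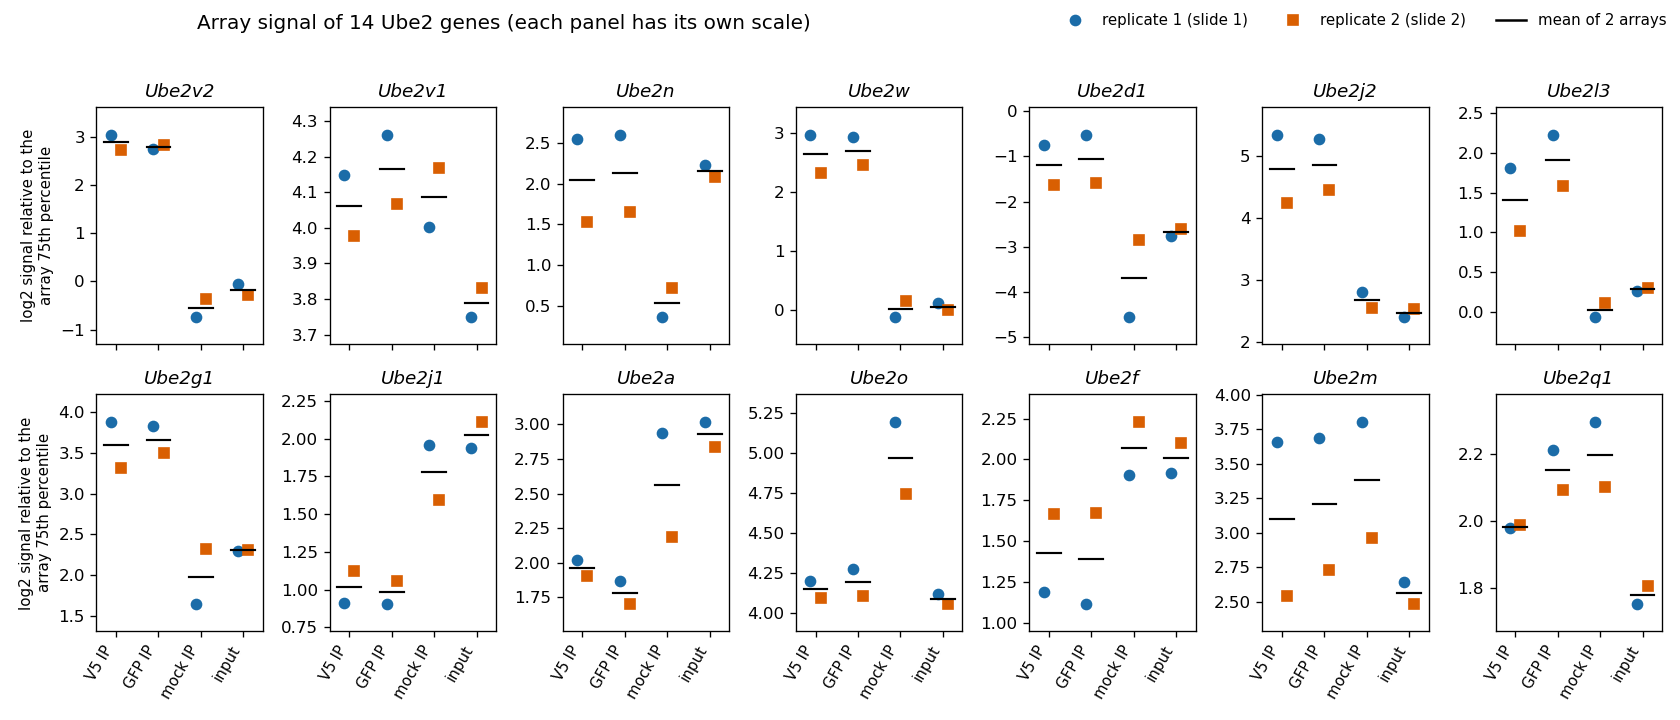
Log2 array signal relative to the array 75th percentile (vertical axis) in V5 IP, GFP IP, mock IP and input for the 14 genes with values on each array in the text, each panel with its own scale. Circles are slide 1, squares slide 2 and bars the mean of 2 arrays. Ube2v2 sits between 2.72 and 3.04 in V5 IP and GFP IP and between -0.74 and -0.05 in mock IP and input, while Ube2v1 keeps within 3.75 to 4.26.

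Across the family, more members were called higher than lower in GFP IP against mock IP. A call is a limma adjusted p under 0.05 over all 19032 genes. In GFP IP against mock IP, 14 of 30 members rose and 2 fell, where 16.3% of all genes rose and 26.5% fell. Leaving out Ube2v2, 13 of 29 rose. The median log2 difference was 0.89 over the members and -0.44 over all genes. Within slides the members' median was 1.16 on slide 1 and 0.59 on slide 2. The brightest probe over all arrays was picked from 77 probes for the 30 members and from 28104 for the 19032 genes. With the mean of all kept probes of a gene, the medians were 0.76 and -0.42. The V5 IP against mock IP values that led to the family are a description only. There 12 members passed as higher and 2 as lower, where 14.6% and 21.4% of all genes did. Without Ube2v2, 11 of 29 passed as higher. The V5 IP median was 0.88 over the members and -0.44 over all genes. With each array centred on its median tested gene, the split of higher and lower members was 14 and 0 in GFP IP (17.6% and 15.1% of all genes) and 13 and 0 in V5 IP (14.9% and 8.18% of all genes).

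The GFP IP count depended on single arrays. It was 5 without mock IP replicate 1, where 9.0% of all genes rose, 3 without GFP IP replicate 1 (7.03% of all genes), and 10 to 16 without any other array. It was also 5 with the normexp background, where 6.21% of all genes rose. The V5 IP count was 2 without mock IP replicate 1 or V5 IP replicate 1 (5.57% and 5.59% of all genes), 6 without either input array (9.41% of all genes each time), and 10 to 15 without any other. With the slide as a block, 17 members rose and 4 fell in GFP IP against mock IP, where 20.9% of all genes rose and 40.2% fell. Ube2v2 set aside, Ube2d3 and Ube2w passed in GFP IP against mock IP whichever array was left out, and each remaining call was lost without at least 1 array.

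Against input, too, more members were called higher than lower. In GFP IP against input 14 of 30 members rose and 2 fell, where 16.0% of all genes rose and 16.8% fell. The median was 1.11 over the members and -0.11 over all genes, or 0.80 and -0.14 with the mean of all kept probes. In V5 IP against input 13 rose (12 of 29 leaving out Ube2v2) and 2 fell, where 14.1% and 13.7% of all genes did, with medians of 1.07 and -0.11. The members' median was 1.36 on slide 1 and 0.90 on slide 2 in GFP IP, and 1.31 and 0.65 in V5 IP. These comparisons share the IP arrays with those against mock IP and are not separate support. The GFP IP count was 5 without input replicate 1 and 6 without input replicate 2 or GFP IP replicate 1, where 6.43%, 6.92% and 7.78% of all genes rose. The V5 IP count was 3 without input replicate 1, 4 without input replicate 2 and 5 without V5 IP replicate 1, where 4.75%, 5.33% and 6.41% of all genes rose. The normexp background left 7 in each (6.58% of all genes in GFP IP and 6.23% in V5 IP), and the mean of all probes left 7 in V5 IP (11.3% of all genes). The calls that passed with every array left out in turn were Ube2h, Ube2j2, Ube2q2, Ube2v2 and Ube2w in GFP IP and, Ube2v2 set aside, Ube2w in V5 IP, and each remaining call was lost without at least 1 array.

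Mock IP against input sets the RNA that came down with normal IgG against total RNA. There 2 of 30 members rose and 0 fell by limma, where 6.64% of all genes rose and 4.03% fell. The median was 0.16 over the members and 0.20 over all genes, and 5 members and 33.3% of all genes had an unadjusted p under 0.05. Both calls (Ube2g2 and Ube2h) ended without mock IP replicate 1 or either input array. A block for the slide gave 6 higher and 1 lower, where 21.4% of all genes were higher and 13.3% lower, so the higher calls among members were close to that share.

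**Figure D2:**
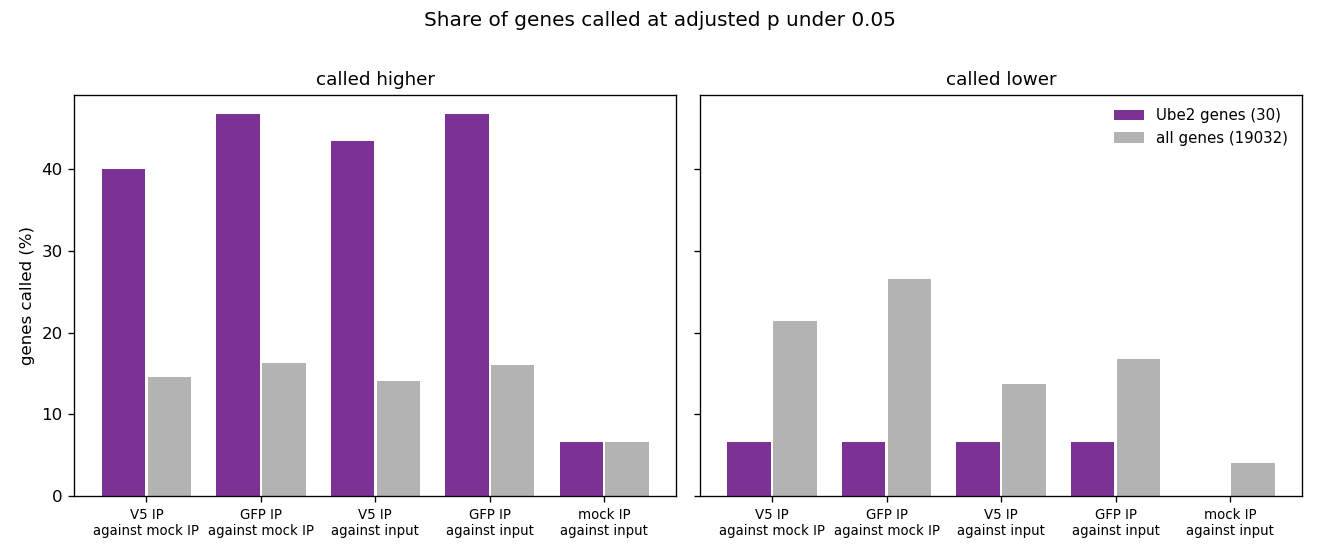
Percent of genes called at a limma adjusted p under 0.05 (vertical axis) among the 30 Ube2 genes and all 19032 genes, in 5 comparisons, with higher calls on the left and lower calls on the right. In GFP IP against mock IP 46.7% of the Ube2 genes and 16.3% of all genes were called higher, and in mock IP against input the shares were 6.67% and 6.64%. V5 IP against mock IP is the comparison that led to the family and is shown as a description.

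Ube2w transfers ubiquitin to the amino terminus of its substrates. It gave 2.98 and 2.32 on the V5 IP arrays and 2.93 and 2.46 on the GFP IP arrays, against -0.12 and 0.15 on the mock IP arrays and 0.11 and -0.01 on the input arrays. The tag antibody arrays all lay far above the others, and mock IP and input overlapped. Ube2w rose 6.41-fold over mock IP in GFP IP (log2 2.68 ± 0.31, limma adjusted p = 0.00209) and 6.27-fold over input (log2 2.65 ± 0.31, adjusted p = 0.00198). Both calls held in all 16 alternatives (adjusted p no higher than 0.0264). With anti-V5 it rose 6.06-fold over input (adjusted p = 0.00242), and its difference from mock IP was 2.63 ± 0.31. Mock IP differed from input by -0.03 ± 0.31. The second kept probe gave 2.92 in GFP IP against mock IP and 2.88 against input.

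The Ube2d enzymes work with a wide range of ligases. All 3 kept members of this group rose in GFP IP over mock IP, and Ube2d2a and Ube2d3 also rose over input with each tag antibody. Ube2d1 gave -0.76 and -1.64 on the V5 IP arrays and -0.52 and -1.58 on the GFP IP arrays, against -4.55 and -2.84 on the mock IP arrays and -2.76 and -2.60 on the input arrays. The tag antibody arrays lay above all others, and mock IP replicate 1 lay far below mock IP replicate 2. Ube2d1 rose 6.26-fold over mock IP in GFP IP (log2 2.65 ± 0.60, adjusted p = 0.015 by limma), a call lost without mock IP replicate 1 or GFP IP replicate 1 (adjusted p of up to 0.0785) and with the normexp background. Against input it stood at 1.63 ± 0.60 in GFP IP, which did not pass (adjusted p = 0.0746).

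Ube2d3 rose 3.13-fold over mock IP in GFP IP (log2 1.65 ± 0.27, limma adjusted p = 0.00637), and this held in all 16 alternatives (adjusted p of up to 0.048). It rose 2.46-fold over input in GFP IP (adjusted p = 0.011) and 2.42-fold in V5 IP (0.0138). Both calls over input ended without either input array, without that IP's replicate 1, with the normexp background and with the mean of all probes. Ube2d2a rose 1.87-fold over mock IP in GFP IP (log2 0.90 ± 0.29, adjusted p = 0.0416) and 2.28-fold over input (adjusted p = 0.0197), and these calls were lost in 8 and 4 of 16 alternatives. The Ube2d3 probes ranged from 0.06 to 2.17 and the Ube2d2a probes from -0.32 to 1.77 in GFP IP against mock IP. In GFP IP against input the ranges were -0.48 to 2.29 for Ube2d3 and -0.24 to 1.52 for Ube2d2a. In V5 IP against input the Ube2d3 probes ranged from -0.53 to 2.29, so probes of both genes disagree about input. Probe sequences were not analysed here, so cross-hybridisation between these close relatives was not tested.

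The Ube2e enzymes carry an extended amino terminus and also serve many ligases. All 3 rose in GFP IP over mock IP, by 1.59 ± 0.29 for Ube2e3, 1.54 ± 0.39 for Ube2e2 and 0.88 ± 0.30 for Ube2e1 on the log2 scale (limma adjusted p = 0.00918, 0.0199 and 0.0495). Over input Ube2e3 rose 3.28-fold in GFP IP and 3.11-fold in V5 IP, and Ube2e2 3.83-fold and 3.53-fold. Ube2e1 stood 0.71 ± 0.30 and 0.83 ± 0.30 above input and did not pass. Against mock IP, the GFP IP call was lost in 2 of 16 alternatives for Ube2e3, 5 for Ube2e2 and 10 for Ube2e1. With the slide as a block, Ube2e1 passed in V5 IP against input (adjusted p = 0.046). The second Ube2e2 probe lay at -0.07 in GFP IP against mock IP and -1.53 against input, and was well above background on 2 of 8 arrays.

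Ube2j1, Ube2j2, Ube2g1 and Ube2g2 serve the degradation of misfolded proteins at the endoplasmic reticulum, and the Ube2j enzymes are anchored in its membrane. In GFP IP against mock IP 2 of the 4 rose, 1 fell and 1 was not called. In GFP IP against input 3 rose and 1 fell. Ube2j2 gave 5.35 and 4.24 on the V5 IP arrays and 5.29 and 4.45 on the GFP IP arrays, against 2.81 and 2.54 on the mock IP arrays and 2.40 and 2.53 on the input arrays. Each tag antibody array lay above every mock IP and input array, and those of slide 1 were the higher. Ube2j2 rose 4.57-fold over mock IP in GFP IP (log2 2.19 ± 0.42, limma adjusted p = 0.00999), a call lost without mock IP replicate 1 or GFP IP replicate 1 (up to 0.0607). It rose 5.29-fold in GFP IP over input (adjusted p = 0.00589), which held in all 16 alternatives, and 5.03-fold in V5 IP over input (adjusted p = 0.0077). Its 3 probes gave 2.19, 2.17 and 1.25 in GFP IP against mock IP.

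Ube2g1 gave 3.88 and 3.31 on the V5 IP arrays and 3.82 and 3.50 on the GFP IP arrays, against 1.64 and 2.32 on the mock IP arrays and 2.30 and 2.31 on the input arrays. The groups of the tag antibodies did not overlap with the others. It rose 3.20-fold over mock IP in GFP IP (log2 1.68 ± 0.32, limma adjusted p = 0.00989), a call lost without GFP IP replicate 1 and with the normexp background. It rose 2.56-fold in GFP IP and 2.45-fold in V5 IP over input (adjusted p = 0.0167 and 0.0234), calls lost in 4 and 5 of 16 alternatives.

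Ube2g2 rose over input in all 3 IPs, 2.30-fold in GFP IP, 2.07-fold in V5 IP and 2.29-fold in mock IP (limma adjusted p = 0.00783, 0.0147 and 0.0284), and GFP IP lay 0.01 ± 0.23 from mock IP. These calls were lost in 4, 4 and 7 of 16 alternatives. Its 3 probes stood 0.79 to 1.20 above input in mock IP.

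Ube2j1 went the other way by the probe that stands for it. It gave 0.91 and 1.12 on the V5 IP arrays and 0.90 and 1.06 on the GFP IP arrays, against 1.96 and 1.59 on the mock IP arrays and 1.94 and 2.11 on the input arrays, so the tag antibody arrays lay below all others. The log2 difference was -0.79 ± 0.24 in GFP IP against mock IP (limma adjusted p = 0.0343) and -1.04 ± 0.24 against input (adjusted p = 0.016). With arrays centred on their median gene, the difference from mock IP was -0.62 and did not pass, and the call was also lost without 5 of the 8 arrays (each replicate 1 of GFP IP, mock IP and input, and replicate 2 of GFP IP and input). The second Ube2j1 probe, well above background on all 8 arrays, stood 2.26 above mock IP and 2.60 above input in GFP IP. With the mean of both probes Ube2j1 lay 0.73 above mock IP and 0.78 above input in GFP IP and passed as higher. No direction for the gene can be given from these probes.

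The Rad6-type enzymes Ube2a and Ube2b act with the ligase Rad18 on the replication clamp and modify histones. Ube2b rose 1.77-fold over mock IP in GFP IP (log2 0.82 ± 0.25, limma adjusted p = 0.0319) and 2.05-fold over input (adjusted p = 0.0171). The call over mock IP was lost in 10 of 16 alternatives and the call over input in 6. Of its probes, 4 of 6 lay between 0.82 and 1.03 in GFP IP against mock IP and the other 2 at -0.24 and -0.32. The last of them was well above background on 2 of 8 arrays and on none of the mock IP or GFP IP arrays. The probe at -0.24 was well above background on all 8 arrays. Against input it lay at -2.75 in GFP IP and -2.51 in mock IP, while the first 4 stood 0.95 to 1.32 above input in GFP IP. The Ube2b probes thus disagree about input. With the mean of all probes Ube2b lay -0.11 from input in GFP IP and -0.012 in V5 IP. Ube2a gave 2.02 and 1.90 on the V5 IP arrays and 1.87 and 1.70 on the GFP IP arrays, against 2.94 and 2.19 on the mock IP arrays and 3.02 and 2.84 on the input arrays. All tag antibody arrays lay below the others. Ube2a fell by 1.15 on the log2 scale in GFP IP against input (limma adjusted p = 0.0222), a call lost in 6 of 16 alternatives. Its difference from mock IP was -0.78 ± 0.29 (adjusted p = 0.0646, or 0.0201 with a block for the slide). The second Ube2a probe stood 1.03 above input and 0.91 above mock IP in GFP IP, so its probes disagree as well.

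Ube2m and Ube2f, which carry NEDD8, and Ube2l6, which carries ISG15, were not called in any comparison. Their log2 differences in GFP IP ran from -0.67 to 0.34 against mock IP and from -0.62 to 0.65 against input. Ube2f gave 1.19 and 1.67 on the V5 IP arrays and 1.12 and 1.67 on the GFP IP arrays, against 1.91 and 2.23 on the mock IP arrays and 1.92 and 2.10 on the input arrays, with all tag antibody arrays below the others. Its difference was -0.67 ± 0.30 in GFP IP against mock IP, and its 3 probes lay at -0.67, -0.45 and 1.35. With the slide as a block, Ube2f passed as lower than mock IP in GFP IP (adjusted p = 0.0212) and as lower than input in GFP IP (0.0363) and V5 IP (0.0479). Ube2m gave 3.66 and 2.54 on the V5 IP arrays and 3.69 and 2.73 on the GFP IP arrays, against 3.81 and 2.96 on the mock IP arrays and 2.64 and 2.48 on the input arrays. In each IP group slide 1 lay above slide 2 by more than GFP IP differed from mock IP, a difference of -0.18 ± 0.48, or of 0.03 with the values of the authors' deposited table. Mock IP stood 0.82 ± 0.48 above input, which passed only with the slide as a block (adjusted p = 0.0448).

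Ube2c starts and Ube2s extends ubiquitin chains on substrates of the anaphase-promoting complex. Neither was called. Ube2c stood 0.91 ± 0.45 above mock IP and 1.01 ± 0.45 above input in GFP IP, and Ube2s 0.29 ± 0.51 and 1.29 ± 0.51. In both genes the slide 1 array lay above the slide 2 array in each group. With the slide as a block, the differences from input in GFP IP passed (adjusted p = 0.014 for Ube2c and 0.00372 for Ube2s), as did the difference of Ube2c from mock IP (adjusted p = 0.0177).

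Among the other members, Ube2l3, which serves ligases that take ubiquitin onto their own cysteine, gave 1.81 and 1.02 on the V5 IP arrays and 2.23 and 1.58 on the GFP IP arrays, against -0.07 and 0.11 on the mock IP arrays and 0.26 and 0.30 on the input arrays. The tag antibody arrays lay above the rest. It rose 3.69-fold over mock IP in GFP IP (log2 1.89 ± 0.34, limma adjusted p = 0.0084, lost without mock IP replicate 1 or GFP IP replicate 1) and 3.08-fold over input (adjusted p = 0.0108, lost in 5 of 16 alternatives). The second Ube2l3 probe, also well above background on all 8 arrays, lay at -0.08 against mock IP and -1.07 against input in GFP IP. Its mean signal was nearly the same (0.903 against 0.905), and it was the brighter on the input arrays (1.58 and 1.74). The Ube2l3 probes thus disagree, and the rise rests on 1 of 2 probes. Ube2q2 rose 1.97-fold over mock IP in GFP IP (adjusted p = 0.0448, lost in 9 of 16 alternatives) and 4.10-fold over input (adjusted p = 0.00451), the second of which held in all 16 alternatives. Its 4 probes stood 0.92 to 1.44 above mock IP and 0.06 to 2.04 above input.

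Ube2h, the enzyme of the CTLH ligase complex, rose over input in GFP IP (3.13-fold, limma adjusted p = 0.00326), in V5 IP (2.73-fold, 0.00561) and in mock IP (2.37-fold, 0.0284), and GFP IP lay 0.40 ± 0.24 above mock IP. These calls were lost in 1, 2 and 7 of 16 alternatives. The other 2 Ube2h probes had log2 differences of 0.68 and -0.47 in GFP IP against input. Ube2z, which receives ubiquitin from the activating enzyme Uba6, rose 2.73-fold in GFP IP over input (adjusted p = 0.0326, lost in 7 of 16 alternatives) and stood 1.16 ± 0.42 above mock IP, which did not pass (0.0553, or 0.0103 with the slide as a block). Ube2t, the enzyme of the Fanconi anaemia pathway, stood 1.39 ± 0.56 above mock IP (adjusted p = 0.0785) and passed with the slide as a block (0.00461). Ube2r2, which serves cullin ligases, lay 0.03 ± 0.28 from mock IP and 0.23 ± 0.28 from input in GFP IP.

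Ube2o, a large enzyme that also acts as a ligase, gave 4.20 and 4.09 on the V5 IP arrays and 4.27 and 4.11 on the GFP IP arrays, against 5.20 and 4.74 on the mock IP arrays and 4.12 and 4.05 on the input arrays. The mock IP arrays lay above the tag antibody arrays, and GFP IP and input overlapped. The difference was -0.78 ± 0.25 in GFP IP against mock IP (limma adjusted p = 0.0374) and 0.10 ± 0.25 in GFP IP against input, and mock IP stood 0.88 ± 0.25 above input (adjusted p = 0.0581, or 0.0158 with the slide as a block). With arrays centred on their median gene, the difference from mock IP was -0.60 and did not pass. The call was lost in 12 of 16 alternatives, among them the removal of any array but mock IP replicate 2. Ube2q1 gave 1.98 and 1.99 on the V5 IP arrays and 2.21 and 2.09 on the GFP IP arrays, against 2.30 and 2.10 on the mock IP arrays and 1.75 and 1.81 on the input arrays. The GFP IP and mock IP arrays overlapped, with a difference of -0.05 ± 0.22 that was 0.13 after centring on the median.

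**Figure D3:**
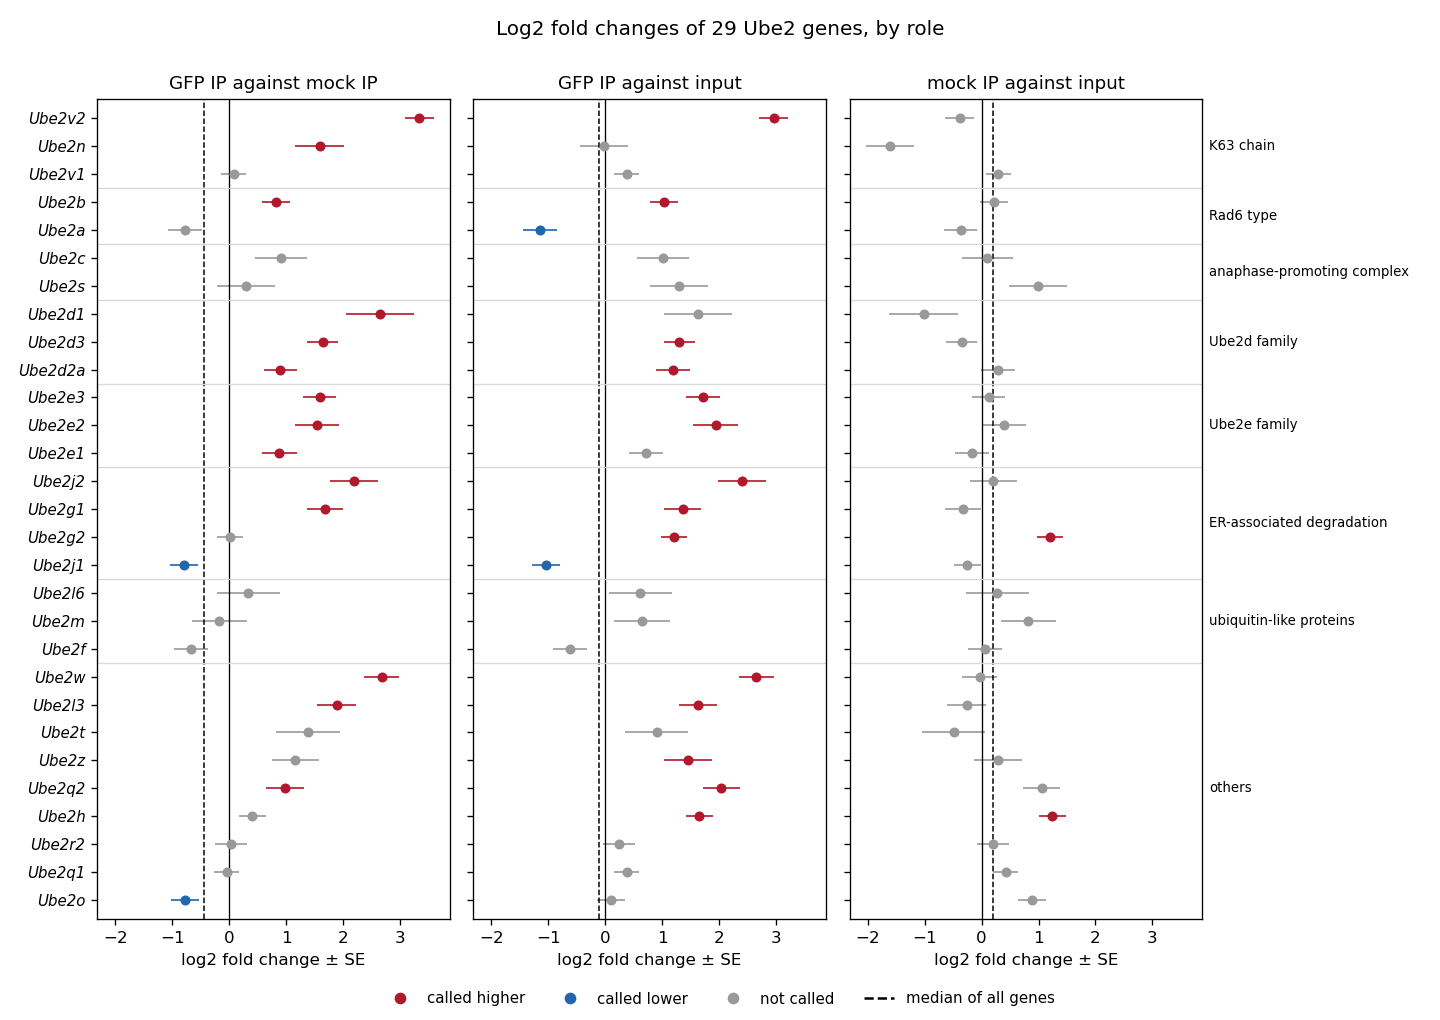
Log2 fold changes (horizontal axis) with the SE of the fit for 29 of the 30 kept Ube2 genes, grouped by role, in GFP IP against mock IP, GFP IP against input and mock IP against input. Red is called higher, blue called lower and grey not called at a limma adjusted p under 0.05, and the dashed line is the median of all genes (-0.44, -0.11 and 0.20). Ube2v2 and Ube2w stand farthest right in the panel of GFP IP against input, and Ube2v2 in the panel of GFP IP against mock IP is shown as a description.

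No member was called different between the 2 tag antibodies. In V5 IP against GFP IP limma called 0 members and 0 of all genes. An unadjusted p under 0.05 was found for 0 members and 187 genes (0.98% of all genes). This fit leaves out the slide, while the same-slide deviations of V5 IP and GFP IP correlated at 0.78. With the slide as a block, 0 members and 1 gene of all were called. With 2 arrays per group, the lack of calls does not show that both antibodies recovered the same RNA. The log2 differences of the members ran from -0.49 for Ube2l3 to 0.18 for Ube2a. Over members the median SD between the 2 arrays of a group was 0.41 for V5 IP, 0.33 for GFP IP, 0.26 for mock IP and 0.11 for input.

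Probes of the same gene disagreed for some members. Several probes were well above background on all 8 arrays for 23 members. Among these, 4 members in GFP IP against mock IP had 1 such probe more than 0.5 above 0 and another more than 0.5 below it on the log2 scale, a distance chosen after the values were seen. The number was 6 in GFP IP against input, 7 in V5 IP against input, 1 in mock IP against input and 4 in V5 IP against mock IP. Counting any difference in sign among kept probes, which takes in probes near 0 and probes near background, 13 of 25 members differed in GFP IP against mock IP. The probe with the highest mean signal stands for each gene, so a member's value can describe 1 transcript form. Of the 23 members with several probes well above background on every array, 9 had all of these above mock IP in GFP IP. They were Ube2d3, Ube2g1, Ube2j2, Ube2n, Ube2q2, Ube2s, Ube2v2, Ube2w and Ube2z. Only the sign counts here: the Ube2s probes lay at 0.29 and 0.40, and Ube2s was not called. No such count was made over all genes.

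**Figure D4:**
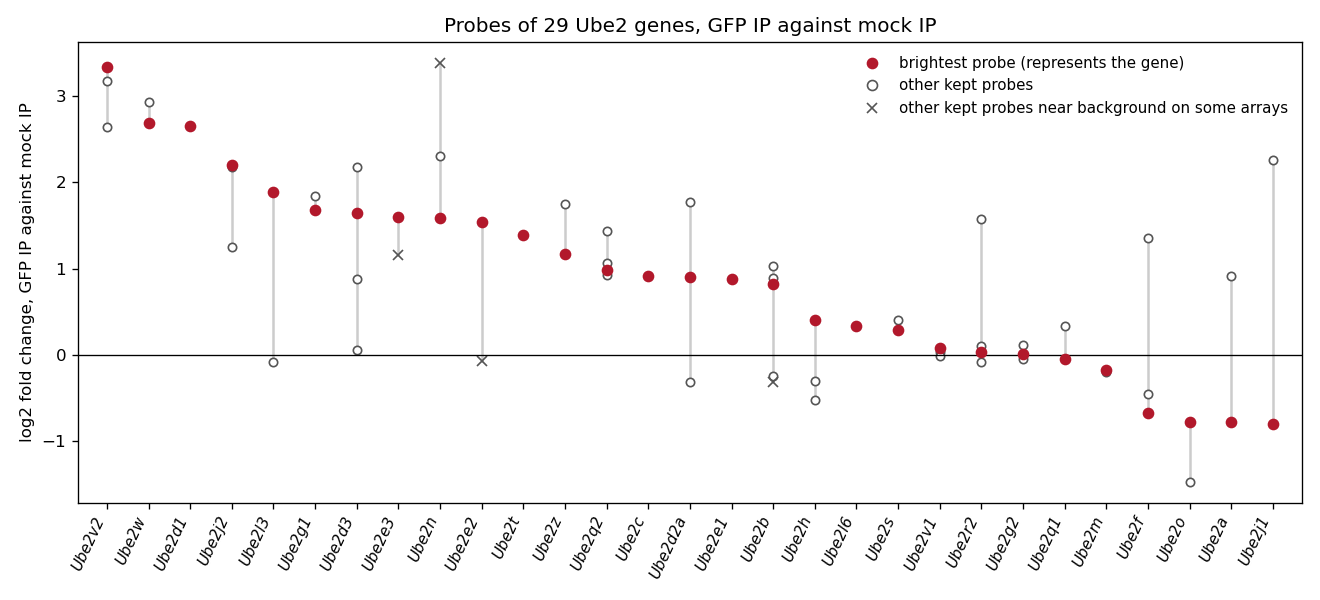
Log2 fold change in GFP IP against mock IP (vertical axis) of every kept probe of 29 of the 30 Ube2 genes, ordered by the probe that stands for the gene (filled circles), with the other kept probes as open circles, or as crosses where they were not well above background on all 8 arrays. The 3 Ube2v2 probes lie between 2.63 and 3.34, while the Ube2j1 probes lie at -0.79 and 2.26.

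Other genes of the ubiquitin relay were called in both directions. Of 9 activating enzyme genes, 4 rose (Nae1, Uba2, Uba3 and Uba6) and 3 fell (Atg7, Uba1 and Uba7) in GFP IP against mock IP, with a median of 0.89. The share of fallen genes in this list and in those that follow is to be read against the 26.5% of all genes that fell in this comparison (16.3% rose). Against input 1 of the activating enzymes rose (Uba6) and 3 fell, with a median of -0.33. Uba6, which loads Ube2z, rose by 1.74 ± 0.30 over mock IP (limma adjusted p = 0.00694), and Uba1, the main ubiquitin-activating enzyme, fell by 0.99 on the log2 scale (adjusted p = 0.0418). Of 9 ubiquitin and ubiquitin-like genes, 3 rose and 3 fell in GFP IP against mock IP, with a median of -0.68. Sumo3, a ubiquitin-like protein, rose by 2.15 ± 0.42 over mock IP (adjusted p = 0.0103) and by 2.81 ± 0.42 over input (adjusted p = 0.00352).

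Of 9 conjugating enzymes or variants with other names, 8 were tested (Cdc34b was not kept). None rose and 3 fell in GFP IP against mock IP (Birc6, Cdc34 and Ufc1), with a median of -0.06, so 3 of 8 fell where 26.5% of all genes did, and Atg3, Atg10 and Ufc1 fell against input. Of 9 ligases and partners of the Ube2n enzymes, Cyld, Shprh and Traf6 rose and Brcc3 and Otub1 fell in GFP IP against mock IP, with a median of 0.69, and Cyld and Traf6 rose and Brcc3 fell against input. Traf6, a ligase that uses Ube2n with Ube2v1, rose by 1.96 ± 0.31 over mock IP (limma adjusted p = 0.00548) and by 1.73 ± 0.31 over input (adjusted p = 0.00632). Among the 6 genes now named Ube2 that the rule did not take, Ube2cbp rose by 1.44 ± 0.47 in GFP IP over mock IP (adjusted p = 0.0407), Ube2d-ps fell by 1.19 on the log2 scale (adjusted p = 0.0254) and the other 4 did not pass. The gene table lists Ube2d-ps as a long noncoding RNA.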

How the data were processed

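RNA of the 8 samples was read on one-colour Cy3 arrays. Per the file headers, Agilent Feature Extraction 9.1.3.1 gave linear spot intensities, and its processed intensities had background subtracted and spatial trend removed. A series-wide table deposited by the authors holds median-normalized signal values and a quality score. The score served only to match its 45018 entries to spots, each to 1 spot within 1e-06, and all its per-sample columns were assigned (0 were left). The log2 of the deposited signal plus 0.1 was an alternative.

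The values used were log2 of the deposited processed intensity over the 75th percentile of each array's gene probes. Outlier spots were dropped and the rest averaged per probe. Probes well above background on both arrays of 1 or more groups were kept (28104 of 41174 probes), and the brightest kept probe stood for its gene (19032 genes). The RefSeq genes of GRCm38.p6 gave the names: 22944 probes by their accession, 6664 by a current symbol, 3095 by a synonym, and 8471 kept the file's name. Ube2d2 and Ube2q in the files are Ube2d2a and Ube2q1 here.

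The tests were two-sided, by limma 3.58.1 (lmFit, eBayes) under R 4.3.3, with the spread shared over all 8 arrays, so arrays outside a comparison also enter its p-values. Benjamini-Hochberg adjustment ran over all genes. On data simulated as independent arrays without a slide effect, the median estimates came near the planted folds. This does not show what share of true changes is called in the real arrays. The members, gene lists and the rule for named genes (Ube2v2, Ube2v1, Ube2n, and the 6 highest and 6 lowest members in GFP IP against mock IP) were chosen with earlier results of these data known. The alternatives were quantile normalization, the normexp background (offset 50), the deposited table, centring on the median, no filter on dim probes, the mean of all probes, only the groups compared, the slide as a block, and each array left out in turn.

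Same-numbered arrays shared a slide and a scan, per the file headers, and their deviations from the group means correlated at 0.30 to 0.78 for all 6 pairs of groups, which does not say that they share a culture. A group kept its place on the slide both times, so position and group cannot be told apart. The series' design text calls the experiments with the tag antibodies independent, without saying whether the arrays of a group came from separate cultures, so p-values rest on the spread among these arrays. Their number limits the precision of every value. Some genes of the lists are not reported here by name.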

Additional observations from a re-analysis of the deposited data

How the results depend on the processing

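Of the 150 values of 30 members in 5 comparisons, 9 turned their sign where the value passed the test before or after the change, each with the mean of all kept probes of a gene. Also, 50 values that were not called, Ube2n in GFP IP against input again among them, changed sign without a call in at least 1 of the 16 alternatives, the largest of them 1.05 in size. Ube2j1 was 0.73 above mock IP with each tag antibody, 0.77 above input for V5 IP and 0.78 for GFP IP. For V5 IP against input Ube2a was at 0.062, Ube2e2 at -0.11 and Ube2b at -0.012. For GFP IP against input Ube2b was at -0.11 and Ube2n at 1.19. That setting also gave 7 higher and 0 lower members for V5 IP against input (11.3% and 12.8% of all genes). It gave 0 lower for GFP IP against input (16.1% of all genes). Against mock IP it left 1 lower member for each tag antibody (19.9% of all genes for V5 IP and 25.2% for GFP IP). Mock IP against input had 1 higher and 1 lower (6.63% and 5.03% of all genes). The cause was not tested.

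With the normexp background, 4 members were higher than mock IP for V5 IP and 5 for GFP IP (4.99% and 6.21% of all genes). Against input 7 were higher for each (6.23% and 6.58% of all genes) and 0 for mock IP (0.042% of all genes). In each of these comparisons 0 were lower, where at most 2.5% of all genes were. Without the filter on dim probes, which raises the number of genes tested, V5 IP against mock IP had 7 higher and 0 lower members (7.03% and 3.52% of all genes). In that setting GFP IP against mock IP had 0 lower (11.4% of all genes) and V5 IP against input 1 lower (6.12%). Mock IP against input had 0 higher, where 0.26% of all genes were. With the deposited signals 0 members were lower than mock IP for V5 IP or GFP IP (7.98% and 14.7% of all genes). Lower than input were 1 for V5 IP (10.5% of all genes) and 1 for mock IP (5.02%). Centring on the median gave 0 lower than mock IP for either antibody (8.18% of all genes for V5 IP and 15.1% for GFP IP). It gave 1 lower than input for V5 IP (11.4% of all genes). Fitting just the groups of a comparison, with fewer arrays, gave 0 lower than mock IP for V5 IP or GFP IP (2.02% and 15.3% of all genes). It also gave 0 higher for mock IP against input, where 0.12% of all genes were higher. Quantile normalization gave 1 lower for mock IP against input, where 6.05% of all genes were lower.

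Without 1 array in turn, V5 IP against mock IP had 2 to 15 higher and 0 to 3 lower members. GFP IP against mock IP had 3 to 16 and 0 to 3, V5 IP against input 3 to 16 and 0 to 2, GFP IP against input 5 to 16 and 0 to 2, and mock IP against input 0 to 3 and 0 to 1. V5 IP against GFP IP had no call of a member under any alternative.

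With the replicate block, which takes the slide as the pairing, V5 IP against mock IP had 17 higher and 3 lower members. GFP IP against mock IP had 17 and 4, V5 IP against input 18 and 3, GFP IP against input 17 and 3, and mock IP against input 6 and 1. Calls over all genes became more frequent too, to 19.4% higher and 38.4% lower, 20.9% and 40.2%, 20.4% and 24.2%, 22.0% and 26.8%, and 21.4% and 13.3%, in the same order. It ended no call of a member.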
